A study of Mus musculus with 12 samples.

Results

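Dendritic cells grown from mouse bone marrow (BMDCs) were compared in 2 states that differ in genotype label and in stimulation at once. BMDCs labelled Pde5 knockout and left without stimulation were set against wild-type (WT) BMDCs given lipopolysaccharide (LPS), a cell wall component of Gram-negative bacteria, at 200 ng/ml for 12 h. The members were set by their labels, with earlier results of these data known. They are 4 of the 12 libraries of the series, 2 in each group. The other BMDC groups, WT without LPS and knockout-labelled with LPS, have 2 libraries each and were fitted together with them, while the 4 libraries of sorted tumoral dendritic cells (DCs) were not used here. All BMDC labels give a time of 9 days. The design text gives the mice as WT or Pde5-/-, while the sources used here name no allele, strain or age. Since both factors change together, an effect of the genotype label and an effect of LPS cannot be told apart in this comparison.

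DCs carry microbial products and antigens to T cells. LPS is bound by CD14 and by the receptor TLR4 with its partner MD-2. The adaptor MyD88 leads from there to NF-kB, AP-1 and inflammatory cytokines, and the adaptor TRIF leads to IRF3 and type I interferon, which acts back on the cells through its receptor. Interferon-stimulated genes, guanylate-binding proteins and MHC class I genes follow, while mature DCs raise CCR7 and costimulatory ligands. PDE5, encoded by Pde5a, breaks down the second messenger cGMP, which soluble guanylate cyclase makes in response to nitric oxide. The comparison asks, gene by gene, where unstimulated cells with the knockout label stood relative to WT cells after LPS.

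Pde5a itself did not separate the labels. Its level in counts per 1000000 of the library total (CPM) was 2.54 and 3.10 in the unstimulated knockout-labelled libraries and 2.91 and 1.15 in the WT LPS libraries, against 3.26 and 2.29 in WT without LPS. The ranges overlap, and whether the counted reads lie in the deleted part of the gene cannot be seen from gene totals, so the genotype is used here as labelled. Total counts were 18.5 and 19.7 M in the unstimulated knockout-labelled and 17.8 and 17.3 M in the WT LPS libraries. Of 32190 symbols, 13072 had enough counts for a test. No label tells if both libraries of 1 group stem from different mice or dishes. The p-values therefore rest on the spread among the deposited libraries alone, and that spread may be technical. In bulk RNA, fewer cells of a type and less RNA per cell cannot be told apart.

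The cells carried the defining genes of conventional DCs in all 4 libraries. Flt3, the receptor for the growth factor that drives DC development, had a CPM of 419 and 415 in the unstimulated knockout-labelled and 450.2 and 454 in the WT LPS libraries. Zbtb46, a transcription factor that marks conventional DCs, was at 229.9 and 187 against 253 and 241. In a principal component analysis of log2 CPM over the tested genes, the first component (63.4% of the variance) placed WT without LPS at -66.6 and -76.6 and WT with LPS at 34.4 and 24.9. The unstimulated knockout-labelled libraries lay at 19.1 and -12.2, so replicate 2 was nearer to the unstimulated WT libraries than replicate 1. The second component (11.1%) did not set them apart, at 3.90 and 6.94 within the range of the other 6 libraries, -37.8 to 29.7. It spread replicates of 1 group, with WT LPS at 29.7 and 5.87. The third component (8.53%) held the unstimulated knockout-labelled libraries at 28.0 and 25.8, apart from the other 6 at -17.8 to -2.56.

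**Figure D1:**
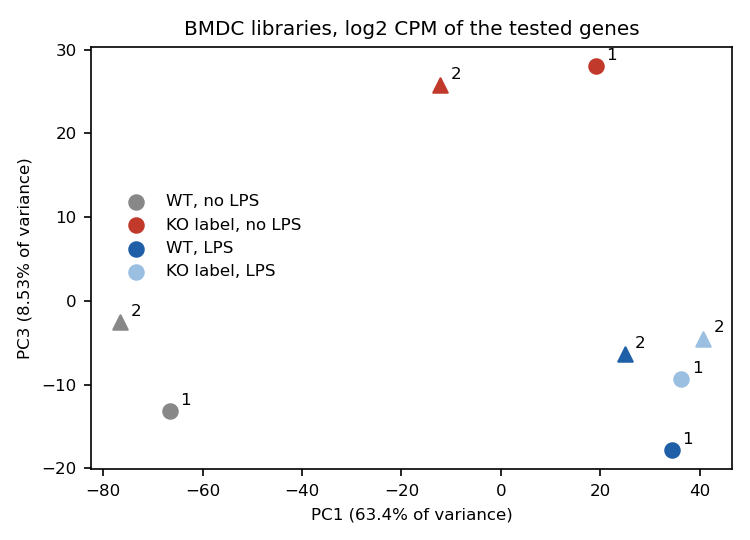
Each point is 1 BMDC library, placed by principal components 1 (x axis) and 3 (y axis) of log2 CPM over the tested genes, in the units of the component scores. Colors give the groups, and the numbers and marker shapes the replicate. Component 2 (11.1% of the variance) is not drawn. The unstimulated knockout-labelled libraries sit at 19.1 and -12.2 on the first component, between the WT libraries without and with LPS, and at 28.0 and 25.8 on component 3, above all other libraries.

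The promoters of genes that carry the description below are shown first, to let the letters be read beside the values. They are the 250 bases before the annotated start from the RefSeq annotation of GRCm38.p6, the assembly of the submitters' mm10 build, printed 5′ to 3′ in the direction of the gene. Capitals mark matches on either strand to 3 motifs, the interferon-stimulated response element (ISRE, searched as GAAA, any 2 bases, GAAA), a form of the NF-kB site (GGGA, any 2 bases, TTCC) and the AP-1 site (TGANTCA). Spic is shown because it is the gene that passed the test, Saa3 because of the size of its difference, Ifit1, Isg15, Cxcl10 and Gbp2 as interferon-inducible genes, and Il1b as a cytokine gene with similar levels in both groups.
Spic: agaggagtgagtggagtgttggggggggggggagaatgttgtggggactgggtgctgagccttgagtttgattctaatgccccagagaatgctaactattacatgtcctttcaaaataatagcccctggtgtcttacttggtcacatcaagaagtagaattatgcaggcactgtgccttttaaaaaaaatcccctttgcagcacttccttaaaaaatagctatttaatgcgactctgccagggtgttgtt
Saa3: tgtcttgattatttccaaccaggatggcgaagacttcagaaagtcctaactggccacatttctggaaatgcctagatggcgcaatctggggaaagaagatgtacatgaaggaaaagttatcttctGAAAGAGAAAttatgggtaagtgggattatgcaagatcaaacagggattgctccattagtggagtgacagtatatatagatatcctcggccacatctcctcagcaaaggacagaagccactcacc
Ifit1: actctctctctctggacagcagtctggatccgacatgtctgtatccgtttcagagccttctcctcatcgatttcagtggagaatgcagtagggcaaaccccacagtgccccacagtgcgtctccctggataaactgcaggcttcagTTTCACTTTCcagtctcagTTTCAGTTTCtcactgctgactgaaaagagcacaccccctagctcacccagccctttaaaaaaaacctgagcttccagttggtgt
Isg15: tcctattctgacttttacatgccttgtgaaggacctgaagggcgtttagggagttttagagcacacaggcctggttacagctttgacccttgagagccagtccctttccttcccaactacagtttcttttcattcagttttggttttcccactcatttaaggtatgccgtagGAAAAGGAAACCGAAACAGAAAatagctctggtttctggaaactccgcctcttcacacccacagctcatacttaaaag
Cxcl10: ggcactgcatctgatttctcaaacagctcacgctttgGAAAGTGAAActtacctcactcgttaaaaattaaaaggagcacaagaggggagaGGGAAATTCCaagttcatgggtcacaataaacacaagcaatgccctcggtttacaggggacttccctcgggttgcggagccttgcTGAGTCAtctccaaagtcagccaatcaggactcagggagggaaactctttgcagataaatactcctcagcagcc
Gbp2: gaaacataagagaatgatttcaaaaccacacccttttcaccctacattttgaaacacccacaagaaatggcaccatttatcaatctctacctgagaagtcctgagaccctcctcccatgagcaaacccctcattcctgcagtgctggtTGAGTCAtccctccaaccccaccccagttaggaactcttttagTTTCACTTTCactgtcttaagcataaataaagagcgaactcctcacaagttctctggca
Il1b: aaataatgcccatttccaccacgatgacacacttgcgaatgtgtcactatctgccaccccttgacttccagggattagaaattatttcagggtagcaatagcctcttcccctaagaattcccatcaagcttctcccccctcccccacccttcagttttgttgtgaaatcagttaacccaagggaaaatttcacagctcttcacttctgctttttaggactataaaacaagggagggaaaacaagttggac
For Saa3 and Il1b the entry's start lies inside the outer bounds of the gene. Those of Saa3 are given below, and those of Il1b end at base 129371164. The windows lie at chr10:88683024-88683273, minus strand (Spic), chr7:46715677-46715926, minus strand (Saa3), chr19:34640639-34640888, plus strand (Ifit1), chr4:156200819-156201068, minus strand (Isg15), chr5:92348890-92349139, minus strand (Cxcl10), chr3:142620413-142620662, plus strand (Gbp2) and chr2:129371140-129371389, minus strand (Il1b).

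Ifit1 held 2 ISRE matches, Isg15 held 3 that overlap each other, and Saa3, Cxcl10 and Gbp2 held 1 each. Cxcl10 also held an NF-kB and an AP-1 match, and Gbp2 an AP-1 match. No match to the 3 motifs stood in the windows of Spic and Il1b. Over the full RefSeq entries, from 250 bases before to 50 after the start, 3.93% of the 10301 tested genes with an entry held an ISRE match. Among the interferon-inducible genes described below it was 17 of 28 with an entry (60.7%), and among the guanylate-binding and immunity-related GTPases 9 of 10. Neither the 13 NF-kB genes nor the 14 inflammatory cytokines with an entry held one. The NF-kB form stood in 1.77% and the AP-1 site in 6.38% of all entries. A match is a description of letters and not evidence that a factor binds there. Nos2, Arg1 and Ccr7 were not among the entries.

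A single gene passed the test between the groups. Of the 13072 genes 1 was called (0.00765%) by edgeR's quasi-likelihood test at a Benjamini-Hochberg adjusted p under 0.05, Spic, which was lower in the unstimulated knockout-labelled cells, and 0 were called higher. Without adjustment, 2187 genes (16.7%) had a p under 0.05, 1197 of them higher (9.16%) and 990 lower (7.57%). DESeq2, run on the same genes, called 482 (3.69%), of which 254 were higher (1.94%) and 228 lower (1.74%), all of them among the genes with an unadjusted edgeR p under 0.05. The count depended on single libraries. It was 169 (116 higher, 53 lower) without replicate 1 of the unstimulated knockout-labelled group and 1 without its replicate 2, where Nos2 was called higher and Spic was not called. Without replicate 1 or replicate 2 of the WT LPS group it was 0 each time, with 1103 and 1873 genes at an unadjusted p under 0.05. The limit of precision was a median SE of 0.17 on the log2 scale, and 9119 genes (69.8%) had a 95% interval that lay within a 2-fold difference in either direction. Log2 fold changes below are the unstimulated knockout-labelled minus the WT LPS group, unless another pair is named, and their median over all tested genes was 0.01. They were below 0 for 47.7% of all tested genes. Counts of list members below are to be read against the shares given here.

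Set side by side with unstimulated WT cells, both states had many called genes. In the unstimulated knockout-labelled cells 1575 genes were called higher (12.0%) and 782 lower (5.98%) than in unstimulated WT, and in WT cells with LPS 2609 were called higher (20.0%) and 2301 lower (17.6%). The median absolute log2 fold change over all genes was 0.30 for the first, 0.41 for the second and 0.20 between both states. These comparisons share libraries with each other and with the main one, so their values are given beside it and add no independent support. Scaled by library size alone, in place of TMM, the splits were 1282 against 1301 and 1689 against 3728, and the median of the main comparison moved to 0.11. With replicate 2 of unstimulated WT left out the totals of 2357 and 4910 became 861 and 2915. Leaving out replicate 1 of the unstimulated knockout-labelled group gave 593 in the first, and leaving out replicate 1 or 2 of the WT LPS group gave 2676 or 3226 in the second.

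**Figure D2:**
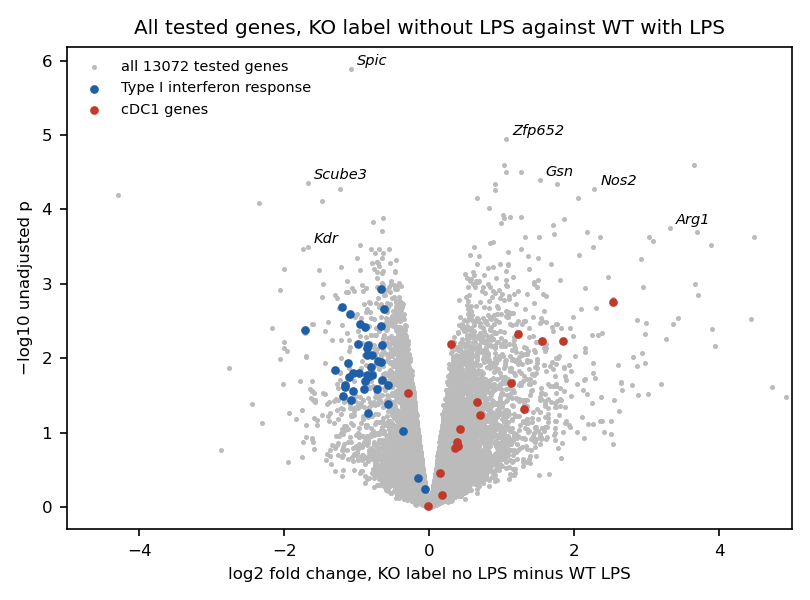
Each point is 1 of the 13072 tested genes, with the log2 fold change of unstimulated knockout-labelled over WT LPS cells on the x axis and minus log10 of the unadjusted p of edgeR's quasi-likelihood test on the y axis. Type I interferon response genes (blue) lie left of 0 with this scaling and most genes of cDC1 cells (red) right of it. Spic, the 1 called gene, stands highest at -1.08, and 7 genes lie outside the plotted range of 5 in either direction.

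Spic encodes an ETS-family transcription factor known for its part in red pulp macrophages and in iron recycling. It lies on chromosome 10, bases 88675269 to 88683023. Its CPM was 66.1 and 70.1 in the unstimulated knockout-labelled libraries, 70.7 and 67.5 in unstimulated WT and 131 and 138 in WT with LPS. Both unstimulated groups overlap each other, and both LPS libraries lie about 2-fold above them. The log2 fold change was -1.08 (SE 0.092, edgeR adjusted p = 0.0169), against 0.08 for the knockout label without LPS (edgeR adjusted p = 0.572) and 1.16 for LPS in WT (edgeR adjusted p = 0.000282). DESeq2 called it too. The call was lost without replicate 2 of the unstimulated knockout-labelled group (-1.10, edgeR adjusted p = 0.0713) and without either WT LPS library (-1.11 with 0.226 and -1.05 with 0.103). Its size was between -1.11 and -1.05 in each of these fits.

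The next genes by p stood just above the threshold. The second smallest edgeR adjusted p was 0.0554, and 12 genes with a positive and 6 with a negative log2 fold change lay under 0.06. At 0.1 they were 47 and 25. Genes named here for their p or their size did not pass the test and were taken after their values were seen, so their values are a description. Only genes without overlap between the libraries of both groups and at an average log2 CPM of at least 2 were open to this choice. Scube3, which encodes a secreted protein of the EGF-repeat family, had a similar order of groups, with a CPM of 36.5 and 36.9 in unstimulated knockout-labelled, 47.4 and 30.6 in unstimulated WT and 104 and 114 in WT LPS libraries (log2 fold change -1.67, edgeR adjusted p = 0.0554). Its levels in the unstimulated groups overlap, and both lie far below the LPS libraries. Kdr, the VEGF receptor 2 gene, stood instead between both WT states, at 53.9 and 38.6 CPM against 13.7 and 24.3 without and 139 and 138 with LPS. The same order held for Dnase1l3, a secreted DNase of DCs and macrophages, with 62.2 and 46.1 CPM against 20.3 and 11.4 and 142 and 138. Phf11b lay at 82.3 and 66.04 CPM against 181 and 144 with LPS, and Nid1, a basement membrane protein gene, at 7.01 and 6.81 against 21.9 and 14.3.

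Under the same limits, 12 genes were taken for the smallest p on the higher side. They are not the same set as the 12 genes under 0.06, some of which did not meet the limits on overlap, level or kind of gene. Of the 12 taken, 10 fell with LPS in WT, against 17.6% of all genes. Both comparisons use the WT LPS libraries, so genes picked for a low level there tend to be among those that fell, and the count is a description. The exceptions were Nos2 and Dbn1. Gsn, the actin-severing protein gelsolin, had a CPM of 169 and 216 in the unstimulated knockout-labelled libraries, 60.2 and 65.1 in WT LPS and 316 and 337 in unstimulated WT (log2 fold change 1.52, edgeR adjusted p = 0.0554). It thus lay between both WT states. The lack of overlap with WT LPS was a condition of the choice, while that with unstimulated WT was not. Ifngr1, the ligand-binding chain of the interferon-gamma receptor, was at 128 and 164 against 74.4 and 70.5 CPM with LPS and 207 and 239.8 in unstimulated WT. Zfp652 was at 44.99 and 57.4, 22.4 and 23.6 and 84.6 and 87.7 CPM in the same order, and the endolysosomal channel gene Tpcn1 at 42.8 and 52.3, 21.5 and 21.1 and 73.6 and 77.96. Dok3, an adaptor that dampens immune receptor signals, was at 38.7 and 45.3 CPM against 17.3 and 21.2 with LPS. For Dbn1, the actin-binding protein drebrin, the CPM of 45.7 and 37.9 lay above both WT LPS (14.3 and 18.2) and unstimulated WT (19.3 and 17.9).

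Both unstimulated knockout-labelled libraries had a higher CPM than each of the other 6 BMDC libraries for 458 of the tested genes (3.50%). Nos2, Saa3 and Arg1, taken after their values were seen, are among them. Nos2, the inducible nitric oxide synthase, lies on chromosome 11, bases 78920787 to 78960226. Its CPM was 153 and 86.1 there, 23.03 and 23.3 in WT with LPS and 0.592 and 0.310 in unstimulated WT. The log2 fold change over WT LPS was 2.28 (SE 0.27, 95% interval 1.63 to 2.92, edgeR adjusted p = 0.0554), and over unstimulated WT it was called in both states, at 8.13 and 5.85. Nos2 passed when either library of its group was left out, at 1.77 without replicate 1 (edgeR adjusted p = 0.0138) and 2.65 without replicate 2 (edgeR adjusted p = 0.000977). It did not pass without replicate 1 or 2 of the WT LPS group, at 2.27 and 2.28 (edgeR adjusted p = 0.478 and 0.167), and DESeq2 called it. Saa3, an acute-phase protein gene of myeloid cells, lies on chromosome 7, bases 46711998 to 46719615 and had 717 and 328 CPM against 87.7 and 81.2 with LPS and 1.01 and 0.310 in unstimulated WT (log2 fold change 2.54, edgeR adjusted p = 0.115). Replicate 1 was again the higher, and both lay above each WT LPS library. Arg1, arginase 1, competes with nitric oxide synthase for arginine and lies on chromosome 10, bases 24915207 to 24927470. It was low throughout, with 9.87 and 6.60 CPM against 0.448 and 1.10 with LPS and 0.415 and 0.806 in unstimulated WT (log2 fold change 3.31, edgeR adjusted p = 0.0811). It was called higher than in unstimulated WT (3.85), whereas LPS in WT gave 0.54 (edgeR adjusted p = 0.547).

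Nos2 and Arg1 belong to a list of nitric oxide, arginine and immunometabolism genes, and none of its other 16 tested members had both unstimulated knockout-labelled libraries above all other BMDC libraries. Of all 18 tested genes 0 were called by edgeR. At an unadjusted p under 0.05, 3 were higher and 5 lower, against 9.16% and 7.57% of all genes. DESeq2 called 3 higher and 4 lower, against 1.94% and 1.74%. Ido1, which degrades tryptophan, had 19.04 and 21.9 CPM against 45.00 and 43.05 with LPS, inside the range of unstimulated WT (27.2 and 13.6). Acod1, the itaconate synthase, had 223 and 159 CPM against 340.02 and 269, and 27.4 and 39.6 in unstimulated WT. Ass1, which returns citrulline toward arginine, had 529 and 450.3 against 719 and 701 CPM. All 3, picked after their values were seen, were lower in each unstimulated knockout-labelled library than in either WT LPS library without passing the test, an order that 13.9% of all tested genes had (24.0% after TMM). The median log2 fold change of the list was 0.17.

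**Figure D3:**
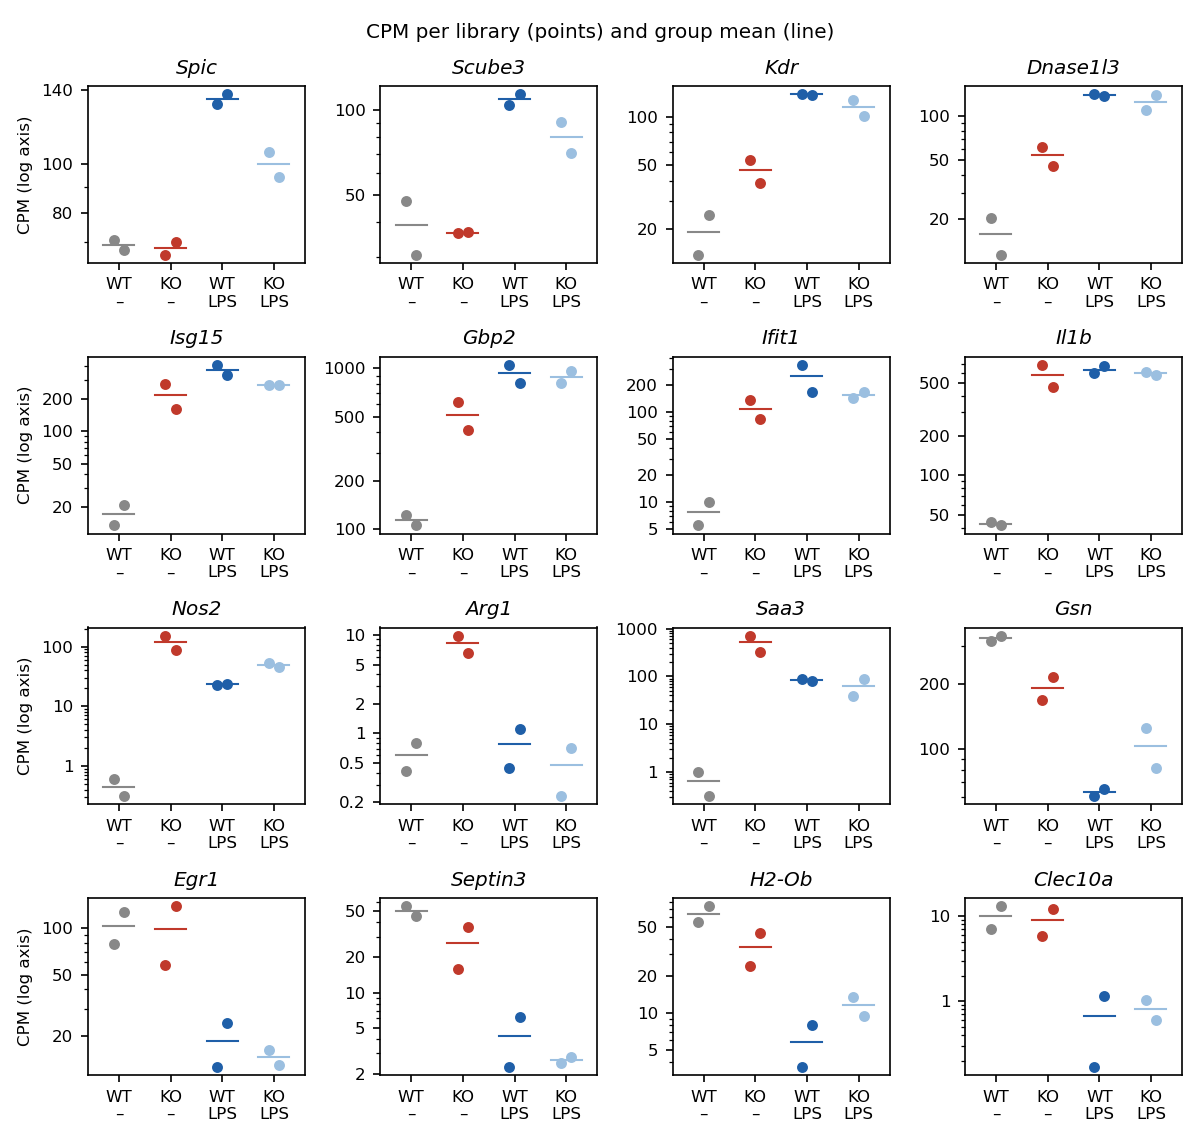
CPM (log axis) of 16 genes in each of the 8 BMDC libraries, as points, with the mean of each group as a line. The groups run from WT without LPS through the knockout label without LPS and WT with LPS to the knockout label with LPS. Spic and Scube3 were at the unstimulated WT level in the unstimulated knockout-labelled libraries, Nos2, Arg1 and Saa3 were above all other groups there, and Isg15, Gbp2, Ifit1 and Kdr lay between both WT states.

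The receptor and its adaptors differed by small amounts, mostly to the lower side. Of the 19 tested genes of this list, 18 had an interval within a 2-fold difference, against 69.8% of all genes. Below 0 were 14, against 47.7% of all genes, and 12 with library size alone. By edgeR 0 were called. At an unadjusted p under 0.05, 6 were lower, against 7.57% of all genes, and 0 higher. DESeq2 called 0 higher and 1 lower, the latter against 1.74%. Tlr4 CPM was 15.6 and 18.8 against 21.6 and 14.7 and that of Myd88 73.96 and 71.8 against 71.5 and 78.1, in both cases with overlapping groups. Ticam1, which encodes TRIF, was at 52.8 and 53.9 against 64.1 and 60.6 CPM. Cd14, the LPS co-receptor, had the most positive value, 0.67 (interval -0.01 to 1.35), with 171 and 119 CPM against 79.9 and 91.00, and 29.2 and 48.3 in unstimulated WT.

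NF-kB genes and their feedback inhibitors were near, and mostly below, the LPS level. Of 16 tested genes 14 were below 0, against 47.7% of all genes, 13 with upper-quartile scaling and 12 with library size alone. All 16 had an interval within a 2-fold difference, against 69.8% of all genes, and 0 were called by edgeR. At an unadjusted p under 0.05, 5 were lower, against 7.57% of all genes, and 0 higher. DESeq2 called 1 lower, against 1.74%, and the median was -0.26. Rel, the c-Rel subunit, had 1122 and 1047 CPM against 1315 and 1305 with LPS and 681 and 652 in unstimulated WT. Relb was at 1114 and 1016 against 1186 and 1255 and 814 and 659.99. Nfkbia, the IkB-alpha inhibitor, was at 421 and 379 against 394 and 493, and Tnfaip3, the A20 inhibitor, at 313 and 286 against 320.2 and 330.1. Relative to unstimulated WT, 12 of the 16 were called higher with the knockout label and 14 with LPS, against 12.0% and 20.0% of all genes. In either state 0 were called lower. Among the 12 cytokine signalling and MAP kinase brakes of the SOCS and DUSP families the median was -0.32, with 0 called by edgeR. At an unadjusted p under 0.05, 3 were lower, against 7.57% of all genes, and 0 higher. DESeq2 called 1 lower, against 1.74%. Socs2 was at 682 and 496 against 729 and 744 CPM and Dusp1 at 565 and 486 against 573 and 637.

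Inflammatory cytokines were divided. The median of 20 tested genes was 0.01, with 10 below and 10 above 0 and 0 called by edgeR. At an unadjusted p under 0.05, 2 were lower and 3 higher, against 7.57% and 9.16% of all genes. DESeq2 called 2 lower and 1 higher, against 1.74% and 1.94%. Il1b, at 688 and 466 CPM against 595 and 669 with LPS, overlapped the LPS libraries and lay more than 10-fold above unstimulated WT (44.5 and 41.7). Its difference from WT LPS had an interval of -0.64 to 0.19. Il6 also overlapped, with 47.1 and 28.9 CPM against 35.6 and 36.5, and Il12b, the shared p40 subunit of IL-12 and IL-23, did so at 866 and 788 against 773 and 966. Tnf did not overlap, with 9.82 and 13.4 CPM against 22.1 and 17.02 with LPS (log2 fold change -0.85, edgeR adjusted p = 0.125), and 15.9 and 19.7 in unstimulated WT. Il15, a growth factor of NK and memory T cells, was at 58.1 and 49.1 against 86.1 and 72.1 CPM. Tnfsf9, the ligand of 4-1BB, was on the other side, at 21.2 and 19.2 against 10.03 and 11.3. Il10 stayed near 1 CPM or less, at 0.593 and 0.813 against 1.29 and 0.692.

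Chemokine genes leaned to the lower side, with a median of -0.38 over 19 genes. By edgeR 0 were called. At an unadjusted p under 0.05, 7 were lower, against 7.57% of all genes, and 0 higher. DESeq2 called 2 lower, against 1.74%. Cxcl10, an interferon-inducible T cell attractant, had 46.99 and 30.7 CPM against 103 and 67.6 with LPS and 2.55 and 6.64 in unstimulated WT, so it lay between them. Ccl5 was at 1285 and 979 against 1327 and 1389 CPM and Ccl22, an attractant of regulatory T cells, overlapped at 2009.9 and 2159 against 2024 and 2537. Ccl4 was low at 1.73 and 4.27 against 8.80 and 8.25, and it overlaps the tested gene Ccl3, so its reads are uncertain to that extent. Only 4 of the 19 had an interval within a 2-fold difference, against 69.8% of all genes.

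Type I interferon response genes were below the LPS level as a group. All 40 tested genes had a log2 fold change below 0, against 47.7% of all genes, and the median was -0.86. Near 0 this direction depended on the fit, since Ifitm3 was above 0 with library size alone, Ifitm3 and Ifi205 without replicate 2 of the unstimulated knockout-labelled group, and Ifi205 without replicate 1 of the WT LPS group. By edgeR 0 of them were called, 36 had an unadjusted p under 0.05 on the lower side against 7.57% of all genes, and DESeq2 called 24 lower against 1.74%. Isg15, a ubiquitin-like modifier, had 274 and 161 CPM against 413 and 328 with LPS and 13.4 and 20.7 in unstimulated WT (log2 fold change -0.86, SE 0.28, edgeR adjusted p = 0.209). Both groups lay more than 5-fold above every unstimulated WT library and did not overlap each other. Ifit1, which binds viral RNA, was at 135 and 84.2 against 336 and 167 CPM, and its close relative Ifit3b, which overlaps Ifit1bl1, was at 14.9 and 8.89 against 48.03 and 25.2. Parp14 was at 463 and 316 against 793 and 551, and Oasl2, of the oligoadenylate synthetase family, at 459.9 and 287 against 748 and 504. Ifitm3, a membrane protein that restricts virus entry, was nearest to 0 at -0.06, with 347 and 304 CPM against 315 and 320.5.

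The size of the interferon difference varied with the library chosen. The median was -1.23 without replicate 1 of the unstimulated knockout-labelled group, -0.59 without its replicate 2, -0.57 without replicate 1 of the WT LPS group and -1.11 without its replicate 2. Each of these 4 fits left 1 library in a group, so only the size is given here. Per library, the median log2 level over the unstimulated WT mean was 2.42 and 1.79 in the unstimulated knockout-labelled and 3.13 and 2.71 in the WT LPS libraries, so replicate 1 was the higher in each group. Relative to unstimulated WT 38 of the 40 genes were called higher in each state, against 12.0% of all genes for the knockout label and 20.0% for LPS. The medians were 2.17 for the knockout label and 2.96 for LPS.

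GTPases that guard against intracellular microbes followed the same order. All 17 tested guanylate-binding proteins and immunity-related GTPases were below 0, save that Iigp1 was above 0 without replicate 2 of the unstimulated knockout-labelled group, and the median was -0.80. Of these edgeR called 0. At an unadjusted p under 0.05, 12 were lower, against 7.57% of all genes, and 0 higher. DESeq2 called 10, all lower, against 1.74% of all genes. Gbp2 had 618 and 414 CPM against 1054 and 809 with LPS and 123 and 106 in unstimulated WT, and Gbp5, an activator of the inflammasome, 524 and 323 against 720.3 and 599 and 61.4 and 60.1. Tgtp1 was at 26.6 and 17.7 against 39.96 and 39.2 CPM. The median moved between -1.14 and -0.47 over the 4 fits that leave out a library.

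The transcription factors of this pathway were less uniform. Of 18 tested IRF, STAT and BATF genes 16 had an interval within a 2-fold difference, against 69.8% of all genes, and 0 were called by edgeR. At an unadjusted p under 0.05, 6 were lower, against 7.57% of all genes, and 0 higher. DESeq2 called 2 lower, against 1.74%. Irf7, the interferon-inducible amplifier of interferon production, was at 384 and 253 against 595 and 497 CPM (log2 fold change -0.87, edgeR adjusted p = 0.158). Irf9, a DNA-binding factor of the interferon response, was at 149 and 120.3 against 207 and 177. Irf8, a factor of DC development, overlapped the LPS group, at 2421 and 1978 against 1679 and 2028.

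**Figure D4:**
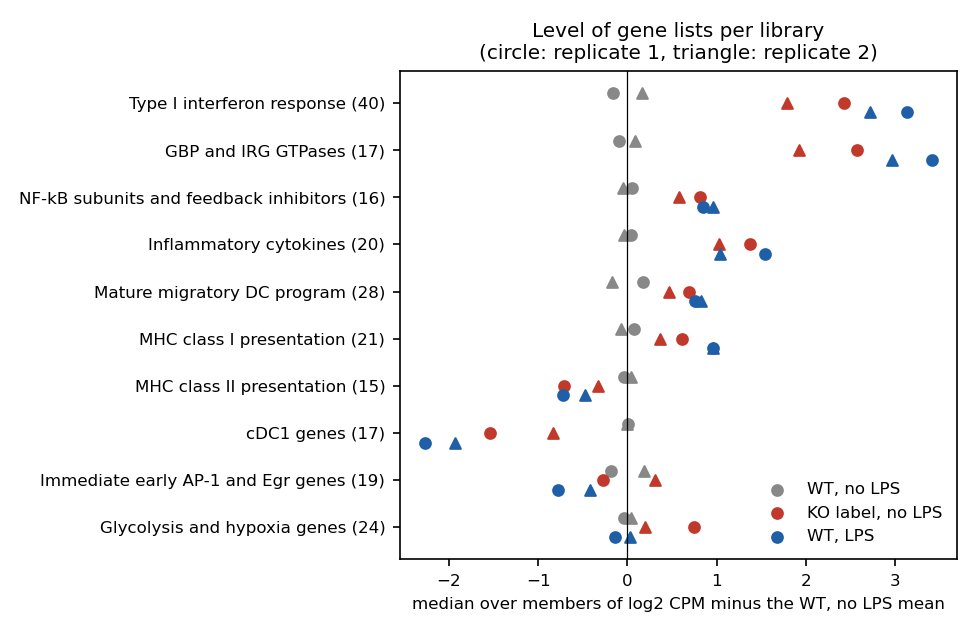
Each point is the median over the tested genes of 1 list (number in brackets) of log2 CPM minus the mean of unstimulated WT, in 1 library. Circles are replicate 1 and triangles replicate 2. The unstimulated knockout-labelled libraries lie below the WT LPS libraries for the interferon response (2.42 and 1.79 against 3.13 and 2.71) and, by a smaller distance, for NF-kB genes (0.81 and 0.58 against 0.85 and 0.96), and less far below 0 for cDC1 genes.

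Maturation and migration genes lay close to, and mostly below, the LPS level. Of 28 tested genes of the mature migratory DC program 22 were below 0, with a median of -0.27, and 25 had an interval within a 2-fold difference. By edgeR 0 were called. At an unadjusted p under 0.05, 8 were lower and 1 higher, against 7.57% and 9.16% of all genes. DESeq2 called 4 lower, against 1.74%. Ccr7, the receptor that guides DCs to lymph nodes, had 5681 and 4953 CPM against 6921 and 7044 with LPS and 3755 and 3034 in unstimulated WT. Fscn1, the actin bundler fascin, was at 8328 and 7257 against 7535 and 9394, overlapping the LPS group. Apol7c departed from this with 2323 and 2758 CPM against 4402 and 4263, overlapping unstimulated WT (3332 and 2563) instead.

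Costimulatory ligands centered on 0, with a median of 0.05 over 11 genes. By edgeR 0 were called. At an unadjusted p under 0.05, 1 was lower and 3 higher, against 7.57% and 9.16% of all genes. DESeq2 called 1 higher, against 1.94%. Cd86 had 201 and 168 CPM against 161 and 165 with LPS and 85.1 and 90.5 in unstimulated WT, Cd40 213 and 194 against 157 and 209.5, and Cd83 636 and 669 against 648 and 718. Cd80, which binds CD28 and CTLA-4 as CD86 does, was at 76.2 and 57.3 against 86.9 and 87.8 CPM (interval -1.14 to 0.17). Among 19 checkpoint and inhibitory genes the median was 0.02, and edgeR called 0. Against the same shares, 2 were lower and 4 higher at an unadjusted p under 0.05. DESeq2 called 1 lower and 2 higher, against 1.74% and 1.94%. Cd274, which encodes PD-L1 and overlaps another tested gene, Plgrkt, was at 781 and 609.7 against 875 and 759 CPM, and Btla, an inhibitory receptor, at 57.8 and 66.2 against 23.7 and 31.9, without overlap.

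Antigen presentation genes of the 2 MHC classes differed in pattern. All 21 tested class I genes were below 0, save that Pdia3 was above 0 with upper-quartile scaling and both Calr and Pdia3 with library size alone, without replicate 1 of the unstimulated knockout-labelled group and without replicate 2 of the WT LPS group. The median was -0.36, and each had an interval within a 2-fold difference. By edgeR 0 were called. At an unadjusted p under 0.05, 14 were lower, against 7.57% of all genes, and DESeq2 called 4 lower, against 1.74%. H2-K1 had 4269.8 and 3499 CPM against 4565 and 4909 with LPS and H2-D1 4203 and 3625 against 4493 and 4702, and Psmb10, a subunit of the immunoproteasome, had 211 and 192 against 284 and 269. Since class I genes are close paralogs, reads may be shared among them. Class II genes had a median of 0.07 over 15 genes, with 12 intervals within a 2-fold difference, against 69.8% of all genes, and 0 called by edgeR. At an unadjusted p under 0.05, 3 were lower and 3 higher, against 7.57% and 9.16% of all genes. DESeq2 called 1 lower and 2 higher, against 1.74% and 1.94%. H2-Aa was at 2205 and 3216 against 2051 and 2749.97 CPM and the invariant chain gene Cd74 at 5263 and 7658 against 5478 and 7069, each with overlapping groups. H2-Ob, a subunit of the HLA-DO homolog that restrains peptide loading, was at 23.95 and 44.6 against 3.64 and 7.96 CPM and 54.2 and 73.3 in unstimulated WT (log2 fold change 2.46, edgeR adjusted p = 0.108).

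Genes of type 1 conventional DCs (cDC1), the subset that cross-presents antigen, were on the higher side. Of 17 tested genes 15 were above 0, with a median of 0.43. By edgeR 0 were called. At an unadjusted p under 0.05, 8 were higher and 1 lower, against 9.16% and 7.57% of all genes. DESeq2 called 4 higher, against 1.94%. Septin3 had 16.02 and 36.8 CPM against 2.30 and 6.17 with LPS and 54.9 and 45.03 in unstimulated WT. Wdfy4, needed for cross-presentation, had 228 and 461 against 79.3 and 139 and 837 and 901, and Itgae, which encodes CD103, 30.8 and 48.3 against 6.95 and 13.5 and 105 and 92.2. These 3 lay between both WT states, with replicate 2 nearer to unstimulated WT. Clec9a, a receptor for dead cells, was close to the LPS level at 11.9 and 13.9 against 7.17 and 10.7 CPM and 41.7 and 53.5 in unstimulated WT, and Xcr1 overlapped the LPS group at 1.35 and 3.76 against 1.96 and 2.89. The list's median was 0.68 without replicate 1 of the unstimulated knockout-labelled group and 0.31 without its replicate 2. Relative to unstimulated WT, 9 of the 17 were called lower and 1 higher with the knockout label, against 5.98% and 12.0% of all genes. With LPS 14 were called lower and 2 higher, against 17.6% and 20.0%. Genes of the second conventional subset, cDC2, had a median of 0.09 over 14 genes, with 0 called by edgeR. Against the same shares, 3 were higher and 1 lower at an unadjusted p under 0.05, and DESeq2 called 2 higher. Among them Clec10a, a C-type lectin, had 5.77 and 12.2 CPM against 0.168 and 1.15 with LPS and 7.11 and 13.1 in unstimulated WT, overlapping the latter. Itgax, which encodes CD11c, was at 115 and 146 against 87.04 and 81.1 CPM.

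Immediate early genes, the first targets of many stimuli, had a median of 0.57 over 19 genes, with 14 above 0. By edgeR 0 were called. At an unadjusted p under 0.05, 5 were higher and 1 lower, against 9.16% and 7.57% of all genes. DESeq2 called 2 higher and 1 lower, against 1.94% and 1.74%. Egr1 had 57.9 and 138 CPM against 12.6 and 24.4 with LPS, a range that spans the 78.6 and 126 CPM of unstimulated WT. Fos was at 101 and 342 against 53.97 and 106 and 222 and 559, and replicate 1 of the unstimulated knockout-labelled group overlapped the LPS libraries. Junb overlapped as well, at 1163 and 1112 against 1023 and 1260.3. Replicates of 1 group differed by more than 2-fold for Egr1 and Fos.

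Glycolysis and hypoxia genes had a median of 0.48 over 24 genes, with 21 above 0 and 0 called by edgeR. At an unadjusted p under 0.05, 6 were higher, against 9.16% of all genes, and 0 lower. DESeq2 called 2 higher, against 1.94%. Gapdh was at 1922 and 1565 against 1098 and 1286 CPM and 1335 and 1567 in unstimulated WT. Pfkfb3, which makes an activator of glycolysis, was on the other side at 3109 and 2352 against 3476 and 3413. Replicate 1 was the higher unstimulated knockout-labelled library for the list, 0.75 against 0.20 for replicate 2 in median log2 level over unstimulated WT. The 23 nuclear-encoded genes of the respiratory chain all had an interval within a 2-fold difference, against 69.8% of all genes, with a median of -0.04. Of them 0 were called by edgeR or DESeq2, and 0 had an unadjusted p under 0.05, against 16.7% of all genes.

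Markers of other cell types differed in part between the groups. Sums of CPM run over all members of a list, tested or not. That of the 25 monocyte and macrophage genes, all tested, was 4304 and 4378 in the unstimulated knockout-labelled and 3919 and 3081 in the WT LPS libraries. For all 17 neutrophil genes, 15 of them tested, it was 167 and 184 against 106 and 111, with Ly6g and Retnlg at 0 counts in all 4 libraries. Groups did not overlap in either sum, nor in those of the B cell, erythroid, mast cell and NK cell genes given next, all higher, while 36.1% of single tested genes had such an order in CPM (24.9% after TMM). B cell genes, 6 tested of 10, summed to 7.55 and 7.57 CPM against 7.45 and 5.25, with Vpreb3 at 0 counts in all 4 libraries. Erythroid and platelet genes, 3 tested of 11, summed to 19.2 and 19.5 against 14.1 and 15.5 CPM, and Hbb-bs, Hbb-bt, Hba-a2 and Gp1bb were at 0 counts in all 4. Mast cell and basophil genes, 7 tested of 12, summed to 38.7 and 28.2 CPM against 21.1 and 24.1 with Mcpt4, Tpsab1 and Cma1 at 0 counts in all 4, and NK cell genes, 7 tested of 11, to 86.9 and 65.8 against 56.8 and 58.7 with Klra8 at 0. Hdc made up 26.5 and 13.6 against 9.42 and 9.23 CPM of the mast cell and basophil sum. The median log2 fold change of that list was 0.01, with 3 genes below 0 and 4 above. Stromal and endothelial genes, 10 tested of 12, had a lower sum at 122 and 142 against 187 and 187 CPM. Kdr made up 53.9 and 38.6 against 139 and 138 CPM of it. By direction, 8 of the 10 were above 0, with a median log2 fold change of 0.61. At an unadjusted p under 0.05, 3 were higher and 2 lower, against 9.16% and 7.57% of all genes. T cell genes, 10 tested of 15, overlapped at 608 and 609 against 713 and 606. Of the neutrophil genes edgeR called 0, 7 were higher at an unadjusted p under 0.05, against 9.16% of all genes, and DESeq2 called 1 higher, against 1.94%. Of the monocyte and macrophage genes, edgeR called Spic, which is on that list. Against the same shares, 5 others had an unadjusted p under 0.05 and were higher, and DESeq2 called 2 higher. F13a1, coagulation factor XIII A of monocytes and macrophages, had 31.2 and 28.9 CPM against 6.501 and 5.25 with LPS and 12.9 and 27.3 in unstimulated WT. Lyz2, lysozyme, made up 1102 and 1535 against 1067 and 776 CPM of the monocyte and macrophage sum. The median log2 fold change of that list was 0.17. The part of these cell types in the differences above was not tested.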

How the data were processed

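Per the labels' protocols, total RNA went into TruSeq libraries. The labels give the samples as BMDCs, but their extraction text describes retinas, so how the RNA of these cells was extracted is not known. What the authors deposited are raw read counts per gene symbol. The submitters' processing notes name fastp 0.12.4, HISAT2 2.2.1, featureCounts 2.0.1 and mm10. None of these gives a gene annotation, a strand setting or a rule for reads that match several genes, so reads of overlapping genes cannot be separated.

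The counts of the 8 BMDC libraries were fitted in 1 model with edgeR 4.0.16 (R 4.3.3), with 1 mean per group, TMM scaling, filterByExpr with a minimum count of 10 and the robust quasi-likelihood test. P-values were Benjamini-Hochberg adjusted over all 13072 genes tested. CPM is the count divided by the library total, without TMM. The SE is the absolute log2 fold change divided by the square root of F, and 95% intervals are the fit's. The biological coefficient of variation was 0.138. Tested genes held 99.92% to 99.95% of the counts. Positions and promoters come from RefSeq tables of GRCm38.p6, which matched 31837 of 32190 symbols. Of the tested symbols 119 had counts identical to another.

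Genes were named as the 12 largest called changes each way at an average log2 CPM of at least 2, the leading members of 39 gene lists and a panel of pathway genes. Because 1 gene was called, the 12 smallest p and the 12 largest changes at an unadjusted p under 0.05 each way were added after seeing the data. Myd88, Ticam1, Cd14, Tlr4, Nfkbia, Tnfaip3, Ifit1, Arg1, Acod1, Ido1, Fos, Tgtp1, Psmb10, Btla, Wdfy4, Itgae, Irf9, Il15, Tnfsf9, Ifitm3, Apol7c and Tpi1 were singled out after their values were seen. The members and lists were chosen with earlier results of these data known. Of 153 genes open to naming, 22 overlap another tested gene, Flt3, Zbtb46, Il1b and Cd74 among them. Alternatives were other scalings, other filters, DESeq2 1.42.0, limma-voom (limma 3.58.1), the 4 libraries alone, a replicate block, each library left out in turn and, added after seeing the data, 1 symbol per set of identical counts.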

Additional observations from a re-analysis of the deposited data

How the results depend on the processing

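The count of 1 called gene in the main comparison was the same with DESeq2 size factors, upper-quartile scaling, a 10 CPM filter, limma-voom and 1 symbol per set of identical counts. It was 15 (12 higher, 3 lower) with library size alone, 276 (160, 116) without a filter, 482 (254, 228) with DESeq2 and 8 (3, 5) with the 4 libraries alone. Leaving out 1 library gave 0 to 169 (0 to 116 higher, 0 to 53 lower). A fit with 1 library in a group takes its spread from the other groups. For the knockout label without LPS, the 4 libraries alone gave 993 (784, 209), library size alone 1301 lower, and leaving out 1 library 593 to 2717 (527 to 1643, 66 to 1074). For LPS in WT, library size alone gave 1689 higher and 3728 lower, and leaving out 1 library 2676 to 4100 (1617 to 2232, 1059 to 1868). The causes were not tested.

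The log2 fold change of Nos2 passed with library size alone (2.37, edgeR adjusted p = 0.0454) but not without a filter, with the 10 CPM filter (0.0727), with limma-voom or with the 4 libraries alone (adjusted p of edgeR or limma up to 0.0964). It was positive throughout. With the replicate number as a replicate block edgeR called 6 (4, 2), Nos2 among them (2.22, adjusted p = 0.0490). The deviations of same-numbered libraries correlated at 0.123 for the main pair of groups and at -0.200 to 0.275 over all 6 pairs, so the numbers were not taken to pair the libraries.

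Some differences near 0 changed sign. With library size alone this held for Cd74 (0.043), Il6 (0.075), Xcr1 (0.084), Ifitm3 (0.035) and the respiratory chain median (0.058), with upper-quartile scaling for Il6 (0.013) and Xcr1 (0.011), and with the 10 CPM filter for Il6 (0.0079), Xcr1 (0.0077) and the nitric oxide list (-0.014). Over the 4 fits that leave out 1 library, the log2 fold change ran from -0.25 to 0.051 for Junb, -0.56 to 0.045 for Il1b, -0.033 to 0.31 for Irf8, -0.33 to 0.16 for Cd74, -0.20 to 0.30 for H2-Aa, -0.15 to 1.18 for Pde5a, -0.14 to 0.27 for Cd40, -0.078 to 0.23 for Cd86, -0.45 to 0.31 for Il6, -0.92 to 0.51 for Xcr1, -0.43 to 0.13 for Tlr4 and -0.19 to 0.049 for Ifitm3. List medians ran from -0.085 to 0.14 for the nitric oxide list, -0.056 to 0.30 for class II genes, -0.10 to 0.024 for the respiratory chain, -0.045 to 0.36 for monocyte and macrophage genes and -0.22 to 0.71 for erythroid genes. With 2 libraries a group, only differences well above the spread between replicates could be called. The depth limits genes near 1 CPM, such as Il10 in both groups and Arg1 in the WT LPS group.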

Other observations

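The LPS-treated libraries labelled knockout entered the fit but no comparison above, and their values for the genes described are given here without a test. Nos2 CPM there was 52.2 and 45.4, between the WT LPS and the unstimulated knockout-labelled libraries. Arg1 CPM was 0.230 and 0.715 and that of Saa3 38.3 and 86.4, in both cases below each unstimulated knockout-labelled library. Spic CPM was 106 and 94.4, above all 4 unstimulated libraries and below both WT LPS libraries. Isg15 CPM was 268 and 269 and that of Gbp2 810.2 and 959.

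Of the glycolysis genes, Gapdh had its highest CPM in this group. It was 3682 and 2269.5 there, above each of the other 6 BMDC libraries. Tpi1, which encodes triosephosphate isomerase, had a CPM of 907 and 474, and replicate 1 was the higher library for both genes.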
